A study of Drosophila melanogaster with 2 samples.

Results

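The ecdysone receptor genes EcR and usp and the regulatory genes that answer to the hormone were described in whole Drosophila melanogaster embryos. These were wild type or mutants of the GATA factor gene serpent (srp). The list held 10 genes, named by symbol: EcR, usp, br, Eip74EF, Eip75B, Eip78C, Hr3, Hr4, Hr39 and ftz-f1. Members were chosen by the platform annotation, as genes with an array probe mapped to that symbol alone. This held for 6 of the 10, EcR, usp, br, Hr3, Hr39 and ftz-f1, through 9 of the 12144 probes of the table, and all 9 had values on both arrays. No probe carried Eip74EF, Eip75B, Eip78C or Hr4 as its single symbol, so these 4 genes were not analysed here. The 6 genes were read among 8224 genes in all.

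Ecdysone is the steroid hormone of insect moulting. It binds a heterodimer of EcR and Ultraspiracle (the usp product), which switches on early genes such as br, Eip74EF and Eip75B, and early-late genes such as Hr3, Hr4 and Hr39. Most of these products are themselves transcription factors, and Hr3 activates ftz-f1, which is expressed once the hormone has declined. Drosophila embryos have a pulse of ecdysteroids in mid-embryogenesis, and the hormone is needed for the movements that shape the embryo and for the cuticle of the first larva.

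Total RNA of hemocyte plus embryos, which per the series description were wild type, was compared with RNA of hemocyte minus embryos, which were serpent mutants, on 2 dye-swapped arrays, A and B in the labels, each with one kind of RNA in the Cy3 and the other in the Cy5 channel. Array A held unwounded hemocyte minus RNA in the Cy3 channel and unwounded hemocyte plus RNA in the Cy5 channel. Array B had the opposite dyes, and its labels do not say unwounded. The sources used here do not state embryo age, the srp allele, the strain, or whether the arrays held separate RNA extracts. The p-values therefore rest only on the spread between these 2 arrays, largely shared across all genes by the moderated fit. That spread may be technical. Loss of srp is known to remove fat body and midgut endoderm as well as hemocytes, so a difference between these embryos need not come from hemocytes. In whole embryos, fewer cells of a type and less RNA per cell cannot be told apart.

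The deposited values have the form of a dye ratio with a minus sign. Their size was taken on the log2 scale, turned to hemocyte plus over hemocyte minus with Cy3 as the numerator, and centred on each array's median. No source used here names the numerator dye. Read this way, 22 of 24 measured hemocyte markers were above 0 and 14 passed the test on that side, which makes this the likely direction. It was chosen with the markers' side known. Positive log2 ratios are called the hemocyte side and negative ones the opposite side, and every sign below turns together if Cy5 was the numerator. The 14 markers were Hml, NimB4, Pvr, Glt, crq, SPARC, NimC1, Col4a1, Pxn, NimC4 and Ppn of plasmatocytes and Men, PPO2 and PPO1 of crystal cells, and the 24 ranged from Ahcy at -0.20 to PPO1 at 4.87. The mutated gene srp lay at 0.15 on array A, 0.36 on array B and 0.26 ± 0.15 (SD, n = 2 arrays) in the mean, which missed the threshold (limma adjusted p = 0.221).

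Of the 6 measured genes, ftz-f1 passed on the opposite side with a mean log2 ratio of -1.61, and Hr39 on the hemocyte side with 0.53. The receptor genes EcR (0.10) and usp (-0.02) and the early gene br (-0.20) did not pass. Hr3 could not be placed, because its probes disagreed on array B. By limma across all genes, adjusted by Benjamini-Hochberg and called at 0.05, 1 of the 6 passed on the opposite side, where 8.18% of all genes did. On the hemocyte side 1 of the 6 passed, against 5.27% of all genes. On either side 13.4% of all genes passed, and 2 of 6 is above that share, though a count of 2 does not set these genes apart from the rest. One sign on both arrays was seen in 3 of the 6, against 68.6% of all genes. The median log2 ratio of the 6 was -0.11, against 0.00 for all 8224 genes.

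**Figure D1:**
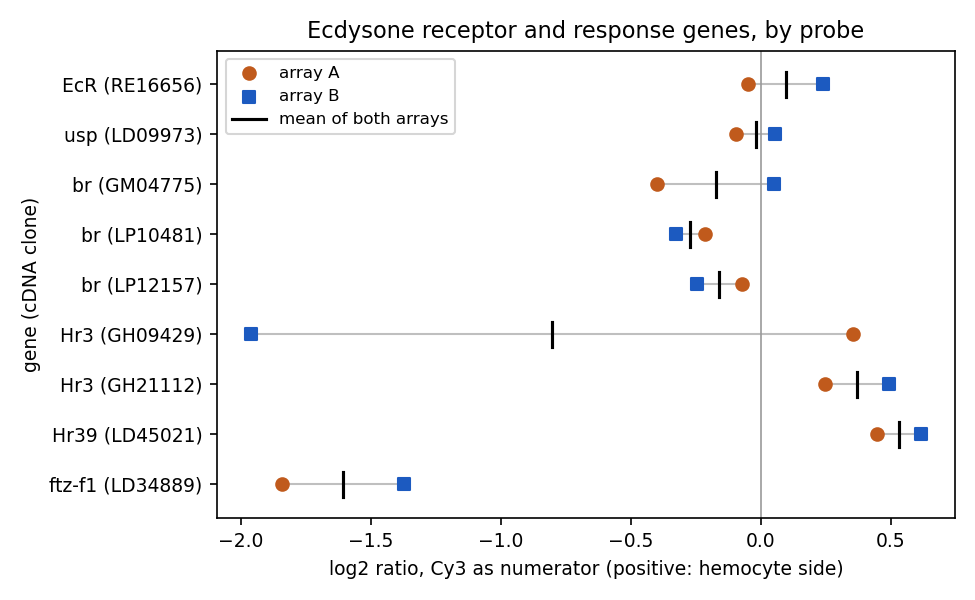
Log2 ratios (x axis, Cy3 as the numerator, positive on the hemocyte side) of the 9 probes of the 6 measured genes (y axis, gene and cDNA clone). Circles are array A, squares array B and bars the mean of both arrays; ftz-f1 lies below -1.3 on both arrays, Hr39 above 0.4 on both, and clone GH09429 of Hr3 lies on different sides on the 2 arrays.

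The receptor genes came first. EcR encodes the subunit that binds ecdysone and was measured by 1 probe, clone RE16656, with deposited values of -1.022 (A) and -1.207 (B). The log2 ratio was -0.05 on array A but 0.24 on array B. The arrays fell on different sides of 0, and the mean of 0.10 ± 0.20 missed the limma threshold (adjusted p = 0.663). The 95% interval of that mean, from the moderated fit, ran from -0.20 to 0.40.

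The partner gene usp, the fly counterpart of the vertebrate RXR genes, had deposited values of -1.055 and -1.060 on clone LD09973. The log2 ratio was -0.09 on A and 0.05 on B. The mean of -0.02 ± 0.10 was the smallest of the 6 (limma adjusted p = 0.929), with an interval from -0.29 to 0.26. Without centring it lay at 0.00341, so its sign carries no information. A 2-fold difference lay outside the intervals of both receptor genes.

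The early gene br, which encodes zinc finger transcription factors of the broad complex, had 3 probes. Clone LP10481 lay at -0.22 on array A and -0.33 on array B. Clone LP12157 lay at -0.07 and -0.25, and clone GM04775 at -0.40 and 0.05. The clones are probes of one gene and not replicates of it. Their average was below 0 on each array, at -0.23 on A and -0.17 on B, but its mean of -0.20 ± 0.04 did not pass (limma adjusted p = 0.297, interval from -0.47 to 0.07). The clones' means ranged over 0.11, from -0.27 to -0.16, but the clones spanned 0.33 on array A and 0.38 on array B. None passed when each probe was tested on its own (limma adjusted p from 0.201 to 0.506). The annotation does not say which broad isoforms the clones represent.

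Hr3 encodes an orphan nuclear receptor of the early-late class, and its 2 probes gave different readings. Clone GH21112 had deposited values of -0.833 and -1.438, and its log2 ratio was 0.25 on A and 0.49 on B, both on the hemocyte side. Clone GH09429 had deposited values of -0.773 and -0.262, and its log2 ratio was 0.36 on array A but -1.96 on array B. On array A the clones were 0.11 apart in log2 ratio, and on array B they were 2.46 apart. Only 8 of the 9793 probes with a single symbol, GH09429 included, differed between the arrays by as much as this clone did.

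The average of both Hr3 clones was 0.30 on A and -0.73 on B, a mean of -0.22 ± 0.73 that did not pass (limma adjusted p = 0.612, interval from -0.80 to 0.36). That sign rests on the value of GH09429 on array B. Taken alone, GH21112 had a mean of 0.37 ± 0.17 (limma over single probes, adjusted p = 0.125), and GH09429 a mean of -0.80 ± 1.64 (adjusted p = 0.375). Signal intensities and spot quality were not analysed here, so neither clone can be preferred from these values, and the cause of the difference was not tested.

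Hr39 encodes a nuclear receptor of the same subfamily as the ftz-f1 product. Its probe, clone LD45021, had deposited values of -0.725 (A) and -1.567 (B). The log2 ratio was 0.45 on A and 0.62 on B, so both arrays lay on the hemocyte side. The mean of 0.53 ± 0.12, a 1.45-fold difference, passed the limma test (adjusted p = 0.0312, interval from 0.26 to 0.81). It ranked number 360 from the hemocyte end of the 8224 genes. Tested against a 1.2-fold difference in place of none, Hr39 did not pass (adjusted p = 0.252), and its adjusted p ranged from 0.0135 to 0.252 over the alternatives.

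The gene ftz-f1 differed most among the 6. It encodes an orphan nuclear receptor with an early form, the partner of Fushi tarazu in segmentation, and a later form that follows the decline of ecdysone. Its probe, clone LD34889, had deposited values of -3.544 (A) and -0.394 (B). The log2 ratio was -1.84 on A and -1.37 on B, both on the opposite side. The mean of -1.61 ± 0.33, a 3.05-fold difference, passed the limma test (adjusted p = 0.00169, interval from -1.96 to -1.26).

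With ftz-f1 at least 2-fold from 1 on each array, it belonged to the 1.82% of genes (150 of 8224) that were so on the opposite side. It was number 61 from the opposite end of all genes by mean log2 ratio. Its arrays differed more than those of most genes, with an SD above that of 89.7% of them, but each array alone placed it beyond 2-fold. It also passed against a 1.2-fold difference (adjusted p = 0.00287). The single probe does not tell the early form from the late one. Whether the probes of ftz-f1 and Hr39, which are related genes with ratios of opposite sign, bind each other's transcripts was not examined.

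**Figure D2:**
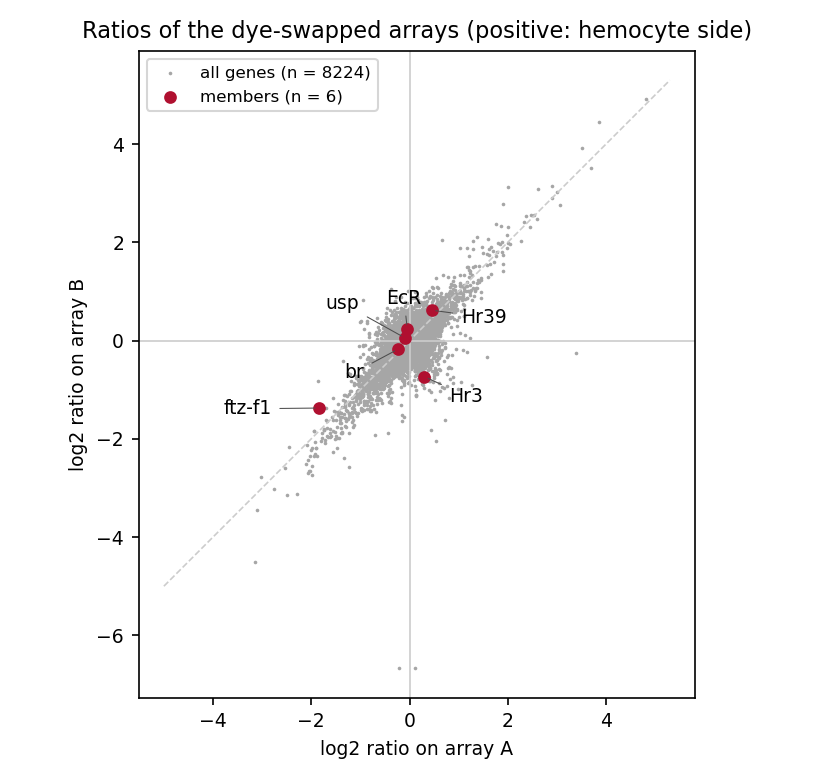
Log2 ratio on array A (x axis) against array B (y axis) for all 8224 genes (grey) and the 6 measured members (red, probes averaged), with the line of equal ratios dashed. ftz-f1 lies at -1.84 and -1.37, Hr39 at 0.45 and 0.62, and Hr3 falls off the line at 0.30 and -0.73.

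The genes that make, move and remove ecdysone were measured in part. Of 21 listed, 12 had values, and the median was -0.01. On the hemocyte side 1 of the 12 passed, against 5.27% of all genes, and on the opposite side 1, against 8.18%. Such small counts do not set the list apart from all genes. Cyp18a1, a cytochrome P450 that inactivates ecdysteroids, lay on the opposite side at -0.81 (A) and -1.34 (B). Its mean was -1.08 ± 0.37, a 2.11-fold difference (limma adjusted p = 0.00753). The hydroxylase gene shd, whose product converts ecdysone to its active form in peripheral tissues, lay at 0.40 and 1.01 on the hemocyte side, with a mean of 0.70 ± 0.43 (adjusted p = 0.0416). Its call ended with the probe of largest change per gene (adjusted p = 0.0563), without marked probes (0.0565) and against a 1.2-fold difference (0.188). The gene shd has 1 probe, and choosing or leaving out probes did not change its ratio. There its adjusted p moved only through the variance and adjustment shared with other genes. The genes Cyp18a1 and shd had ratios of opposite sign. Whether the amount of active hormone differed between the embryos was not tested.

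The other members of that list did not pass. The ecdysone importer gene Oatp74D lay at 0.48 ± 0.23 (limma adjusted p = 0.062) and the ABC transporter gene E23 at 0.44 ± 0.08 (adjusted p = 0.0532), just above the threshold. Of the genes for the early steps of hormone synthesis, spo was measured, at 0.03 ± 0.01 (adjusted p = 0.88).

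Of 25 other ecdysone response genes, 15 were measured. On the hemocyte side 5 of the 15 passed, against 5.27% of all genes, and on the opposite side 2, against 8.18% of all genes. The median of the 15 was 0.23. The highest was ImpL2, which encodes a secreted protein that binds insulin-like peptides, at 1.10 (A) and 1.003 (B) (mean 1.05 ± 0.07, 2.07-fold, limma adjusted p = 0.00269). It was followed by Fbp1, a fat body gene for a storage protein receptor, at 0.77 ± 0.42 (adjusted p = 0.0306), and by the zinc finger gene Kr-h1, a target of juvenile hormone, at 0.66 ± 0.15 (adjusted p = 0.0166). The bZIP gene vri lay at 0.57 ± 0.03 (adjusted p = 0.0221) as the mean of 3 probes from 0.21 to 0.76.

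Blimp-1 encodes a repressor known to hold down ftz-f1 in prepupae. It lay on the hemocyte side at 0.41 (A) and 0.57 (B), the side opposite to ftz-f1. Its mean of 0.49 ± 0.11, a 1.41-fold difference, passed (limma adjusted p = 0.0398), though not against a 1.2-fold difference (adjusted p = 0.361). Both its probes carry one clone name, RE26660 with and without a mark, and lay at 0.53 and 0.45. Whether Blimp-1 bears on the ratio of ftz-f1 was not tested.

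On the opposite side were the zinc finger gene cbt at -0.69 ± 0.12 (limma adjusted p = 0.0126) and ImpE1 at -0.46 ± 0.05 (adjusted p = 0.0427). The call of ImpE1 rests on 1 probe, whose ratio did not change in the following settings. It ended with the probe of largest change per gene (adjusted p = 0.0514), without marked probes (0.0517) and against a 1.2-fold difference (0.434). Against that difference cbt, vri, Kr-h1 and Fbp1 also did not pass (adjusted p from 0.0646 to 0.163), while ImpL2 did, so that 1 of the 7 calls in this list held there. The ecdysone-induced transcription factor gene Eip93F lay at 0.01 (A) and 0.68 (B) and did not pass (mean 0.35 ± 0.48, adjusted p = 0.266).

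Of 13 other nuclear receptor genes, 7 were measured, all 7 means were above 0, and 0 passed limma over all genes. Over all genes 4128 of 8224 means were above 0. An unadjusted limma p under 0.05 was found for 4 of the 7, against 27.5% of all genes (2264 of 8224). The same count was 2 of 6 for the members, 4 of 12 for the synthesis list and 8 of 15 for the other response genes. In the lists below it was 3 of 12 (cofactors), 2 of 4 (juvenile hormone), 4 of 12 (early patterning) and 12 of 15 (late cuticle). The median size of the log2 ratio of the 7 was 0.28, against 0.17 over all genes. The 7 genes ran from svp at 0.00 ± 0.17 to the fat and sugar metabolism regulator Hnf4 at 0.34 ± 0.19 (limma adjusted p = 0.134), and their median was 0.28. The svp probes disagreed, at 0.26, 0.16 and -0.41.

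Of 17 genes of receptor cofactors, 12 were measured, with a median of 0.06. On the hemocyte side 1 of the 12 passed, against 5.27% of all genes, and on the opposite side 1, against 8.18%. Counts this small do not set the list apart from all genes. The nuclear receptor partner gene rig, needed for moulting, lay on the opposite side at -0.74 (A) and -0.86 (B) (mean -0.80 ± 0.08, 1.74-fold, limma adjusted p = 0.00717). The chromatin remodeller gene Chd1 lay at 0.49 ± 0.17 (adjusted p = 0.0475), a call that ended with the probe of largest change per gene (0.0581), without marked probes (0.0586) and against a 1.2-fold difference (0.41). Chd1 has 1 probe, whose ratio was unchanged in these settings.

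Juvenile hormone acts together with ecdysone at moults. Of 10 genes of its pathway 4 were measured, and 2 passed, both on the hemocyte side, where 5.27% of all genes passed. The methyltransferase gene jhamt, for a late step of juvenile hormone synthesis, lay at 1.29 (A) and 1.87 (B) (mean 1.58 ± 0.41, 2.99-fold, limma adjusted p = 0.00254). JhI-26, a gene induced by juvenile hormone, lay at 0.84 ± 0.11 (adjusted p = 0.00641) as the mean of 3 probes at 1.51, 0.68 and 0.32. The hydrolase gene Jheh2, whose family degrades the hormone, lay at -0.14 ± 0.09 and did not pass (adjusted p = 0.48). The list is short, and the receptor genes Met and gce were not measured.

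**Figure D3:**
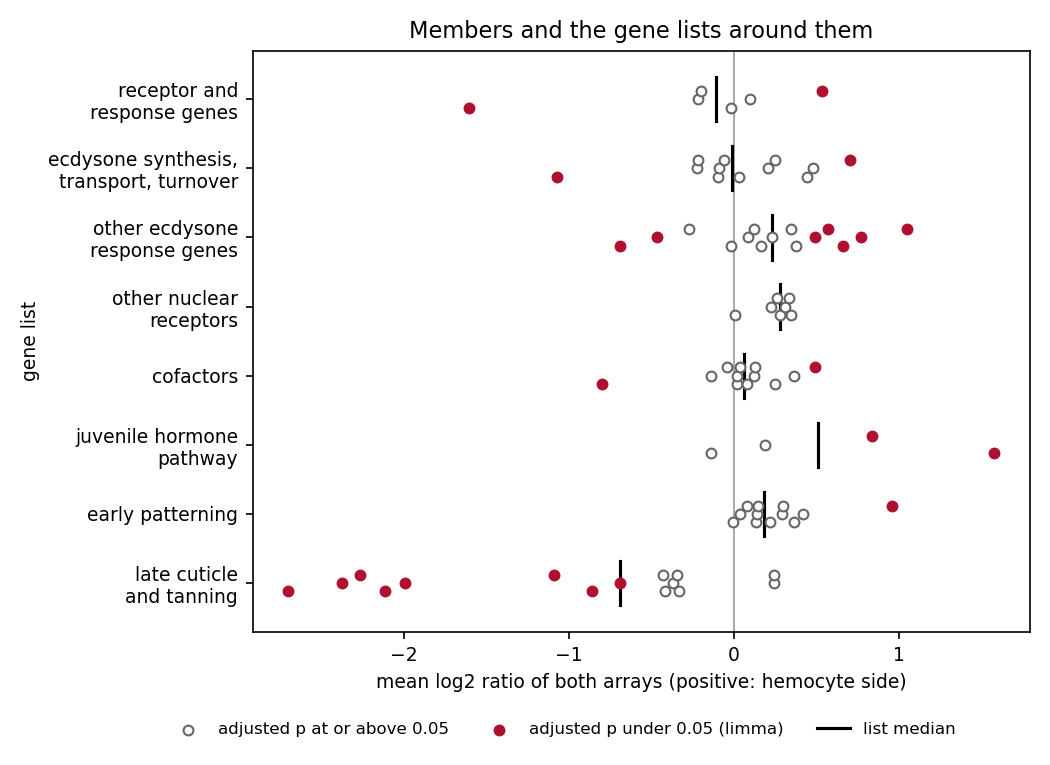
Mean log2 ratio of both arrays (x axis, positive on the hemocyte side) for each measured gene of the members and 7 lists (y axis); filled points passed limma across all genes, open points did not, and bars are list medians. The late cuticle list sits at a median of -0.69, and the early patterning list at 0.18.

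Since ftz-f1 and the hormone genes change with embryonic stage, genes of early patterning and of late cuticle formation were read beside them. Neither list was tested as a measure of embryo age. Of 15 measured genes of late cuticle formation and tanning, 8 passed on the opposite side, the side of ftz-f1, where 8.18% of all genes did. On the other side 0 passed, and 13 of the 15 were below 0. The median of the 15 was -0.69, at -0.60 (A) and -0.89 (B) on the single arrays. This list was chosen with earlier results of these data known, so its count and median are not an independent reading of embryonic stage. The 8 were the cuticle protein genes TwdlM, TwdlB, TwdlD, Cpr56F and Cpr64Ad, the chitin-binding protein genes obst-A and obst-E, and ple, for the first enzyme of dopamine synthesis. The list ran from TwdlM at -2.70 to the chitin deacetylase gene verm at 0.24, and ple lay at -1.09 ± 0.00. The call of obst-E ended with the probe of largest change per gene (limma adjusted p = 0.057), without marked probes (0.0573) and against a 1.2-fold difference (0.197). Its 1 probe had an unchanged ratio in these settings. Of 12 measured early patterning genes 11 were above 0, against 4128 of all 8224 genes, and their median was 0.18. They ran from Kr at -0.01 to the head gap gene oc at 0.96 ± 0.20 (limma adjusted p = 0.00523). Of the 12, oc alone passed, on the side where 5.27% of all genes did. Several list genes belong to fat body, among them Fbp1. The part of embryo age or of lost tissues in the ratios of ftz-f1, Hr39 and the hormone genes was not tested.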

How the data were processed

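Total RNA of hemocyte plus and hemocyte minus embryos was prepared with Trizol and RNeasy and labelled by the amino-allyl method, per the labels. The authors deposited 1 score per probe and array, which has the form of a linear dye ratio with a minus sign; the sources used here do not state the scanner, background correction, normalization or numerator. All values were below 0, with medians of -0.989 (A) and -1.021 (B), and 137 and 128 values were missing. Before turning, Pearson r between the arrays was -0.689 over probes, the dyes being swapped per the labels. Signal over background is unknown, and precision is limited by the number of arrays.

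The log2 size of each score was turned by the dyes in the labels, with Cy3 as the numerator, and centred on the array's median. The platform annotation gave 1 symbol for 9917 probes, several for 625 and none for 1602; 9746 of the 9917 were found in the RefSeq gene table of Release 6 and no symbol changed. Probes with both values were averaged per gene, which gave 8224 genes. The test was lmFit and eBayes of limma 3.58.1 under R 4.3.3 (an intercept alone, 1 residual and 5.01 prior degrees of freedom). Adjustment was by Benjamini-Hochberg over all genes. The procedure was tested on data simulated from the fitted model itself, which cannot show how it performs on these arrays. Errors after ± are SDs of the 2 arrays. Alternatives were no centring, scaled arrays, the probe of largest change, single probes, no marked probes (names with ReAmp, rdnd or dupe), robust moderation, a test against 1.2-fold, Cy5 as the numerator and each array alone. Every measured member was named, with srp; of each list every gene past the threshold was named, or else its highest and lowest. Oatp74D, E23, spo, Eip93F, Jheh2, Ahcy, verm, Kr and single probes of list genes were named after their values were seen. The members and lists were chosen with earlier results of these data known.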

Additional observations from a re-analysis of the deposited data

How the results depend on the processing

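With only 2 arrays and 1 residual degree of freedom, each call rests on variance borrowed across genes. Of the members, ftz-f1 passed under every alternative with a test, and Hr39 under all but the test against a 1.2-fold difference. On single arrays ftz-f1 lay between -1.84 and -1.37 and Hr39 between 0.45 and 0.62. Tested against 1.2-fold, 535 genes passed in place of 1106, 199 of them hemocyte side and 336 opposite, and 1 member. With Cy5 as the numerator the sides hold 673 and 433 genes, and the members lie at -0.10 (EcR), 0.0196 (usp), 0.20 (br), 0.22 (Hr3), -0.53 (Hr39) and 1.61 (ftz-f1), by construction. Without centring usp lay at 0.00341 and Kr at 0.0146. Hr3 lay at 0.37 by clone GH21112 alone, and svp at -0.41 by its probe of largest change. NimC1, a hemocyte marker, did not pass without marked probes (0.39, limma adjusted p = 0.0829). The other counts over all genes stayed within 1.5 times of those reported, but the lists' small counts moved more. Against 1.2-fold, calls among other ecdysone response genes went from 7 to 1, and those of the synthesis and cofactor lists from 2 to 1 each. The synthesis list had 4 calls without centring or with robust moderation, 3 with scaled arrays and 1 without marked probes, and the cofactor list 1 with the probe of largest change or without marked probes. The early patterning list had 2 in place of 1 in 4 settings (no centring, probe of largest change, no marked probes, robust moderation), and crystal cells 2 in place of 3 against 1.2-fold. Plasmatocyte markers had 8 calls against 1.2-fold and 10 without marked probes, in place of 11. In place of 8, the late cuticle list had 9 with robust moderation. It had 7 with the probe of largest change, without marked probes or against 1.2-fold. Other ecdysone response genes had 6 with the probe of largest change or without marked probes.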
